A study of Mus musculus with 24 samples.

Results

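The enzymes that copy DNA and make its building blocks were followed in haematopoietic stem cells of young and old mice. The genes were *Pcna*, *Pola1*, *Prim1*, *Pold1*, *Pole*, *Rrm1*, *Rrm2*, *Tyms*, *Tk1* and *Dut*, chosen by name, and all 10 had a row among the 18762 genes of the table of normalised read counts. LSK-SLAM cells are lineage-negative, CD150+, CD48-, Sca-1+ and c-Kit+ cells of the marrow, among which stem cells are enriched, and had been sorted from wild-type (WT) C57BL/6 mice. By the labels the 5 young mice were 4 to 5 months old and the 7 old mice 20 to 22 months old. A supplementary figure legend of the paper gives higher ages for both groups of this RNA-seq. No group carried a transgene or received a treatment according to the labels, and RNA came from 15000 sorted cells. Each mouse name also carries a letter whose meaning the labels do not give: letter A marks 2 young and 4 old mice, and letter B marks 3 young and 3 old mice.

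Replication needs a primer, polymerases, a clamp that holds the polymerases on the template, and a supply of deoxynucleotides. DNA polymerase alpha and primase lay down a short primer, after which polymerase epsilon extends the leading strand and polymerase delta the lagging strand, both tethered by the PCNA ring. Ribonucleotide reductase makes deoxynucleotides from ribonucleotides, and thymidylate synthase, thymidine kinase and dUTPase supply thymidylate and keep uracil out of DNA. Most stem cells in adult marrow are out of cycle, and many genes of this machinery are known to be transcribed most strongly around S phase through E2F factors, with the CCAAT-binding factor NF-Y acting at many cell cycle promoters.

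A RefSeq promoter window (250 bases before to 50 bases after the start, build GRCm38.p6) was present for 9 of the 10 genes. The windows were searched on both strands for 4 E2F words (TTTCCCGC, TTTGGCGC, TTTCGCGC and TTTGCCGC) and for CCAAT, the NF-Y word. No E2F word contains CCAAT, although the letters of one site can run into the other. An E2F word was found for 2 of the 9 genes, *Pola1* at position -138 and *Pold1* at position 39 from the start, against 2.26% of 32851 RefSeq windows of that length. CCAAT was found for 5 of the 9, *Pcna* (-87), *Rrm1* (-91 and -45), *Rrm2* (-50), *Pola1* (-37) and *Prim1* (-9), against 37.4% of all windows. *Pola1* was the 1 gene of the 9 with both words, which 0.962% of all windows hold. The stretches shown are the 150 bases before the start of *Pola1*, which carries both words, and of *Rrm1* and *Rrm2*, the partners of 1 enzyme, which both carry CCAAT. Positions count from the RefSeq start, and the stretch of *Rrm2* ends 13 bases earlier, before the start that GENCODE gives. GENCODE also starts *Pcna*, *Prim1* (by 47 bases), *Tk1* (by 78), *Pold1* (by 34) and *Dut* further upstream. By those starts the CCAAT words of *Pcna* and *Prim1* lie inside the gene, as does the whole window of *Dut*. Capitals mark the matches, and ATTGG is CCAAT on the opposite strand. A match describes letters in the window and was not tested as a binding site. They lie at chrX:93632156-93632305 (minus strand) for *Pola1*, chr7:102441545-102441694 (plus strand) for *Rrm1* and chr12:24708091-24708240 (plus strand) for *Rrm2*.
Pola1: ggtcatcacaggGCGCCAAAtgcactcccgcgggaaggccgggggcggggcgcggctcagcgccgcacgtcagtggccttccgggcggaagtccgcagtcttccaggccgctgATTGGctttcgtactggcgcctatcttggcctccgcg
Rrm1: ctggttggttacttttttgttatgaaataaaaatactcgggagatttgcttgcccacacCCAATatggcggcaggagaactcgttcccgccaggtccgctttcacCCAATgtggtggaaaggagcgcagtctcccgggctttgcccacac
Rrm2: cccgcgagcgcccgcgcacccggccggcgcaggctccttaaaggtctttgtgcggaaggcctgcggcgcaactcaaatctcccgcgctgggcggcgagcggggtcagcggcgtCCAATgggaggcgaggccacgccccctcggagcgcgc

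RNA of stem cell identity was present in every mouse. All 10 markers fixed for the sorted population had reads, with *Kit* between 546 and 2049 normalised read counts over the 12 mice and *Slamf1*, which encodes the sort marker CD150, between 42.6 and 154. *Cd48*, used to sort cells out, lay between 0.583 and 11.8. The reads behind the values numbered 861047 to 5118507 per mouse, at most 3106243 in the mice of letter A and at least 3233516 in those of letter B, so depth did not overlap between letters. A mouse gave between 16 and 1174 reads for each of the 10 genes, and the lowest counts carry the largest counting error.

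All 10 genes had a lower mean in old than in young mice, and none was called. The mean normalised read count in old mice was 16.9% (*Tk1*) to 40.6% (*Tyms*) below that in young mice. The median log2 fold change of the 10 genes was -0.52 (range -0.75 to -0.25), where the median of all 12354 genes tested was -0.02. Over all genes tested, 52.3% were lower in old mice, 0.105% were called in either direction (limma, Benjamini-Hochberg adjusted p under 0.05) and 1.99% were lower at an unadjusted p under 0.05. Of the 10 genes, 6 were lower at that unadjusted level, *Pold1*, *Pcna*, *Tyms*, *Rrm2*, *Pole* and *Pola1*, with limma adjusted p of 0.76 to 1.0 over all 10. Without young mouse 5 this count was 2, and without young mouse 4 it was 3. In RNA from many cells together, fewer cells in S phase and less of a transcript per cell cannot be told apart.

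**Figure D1:**
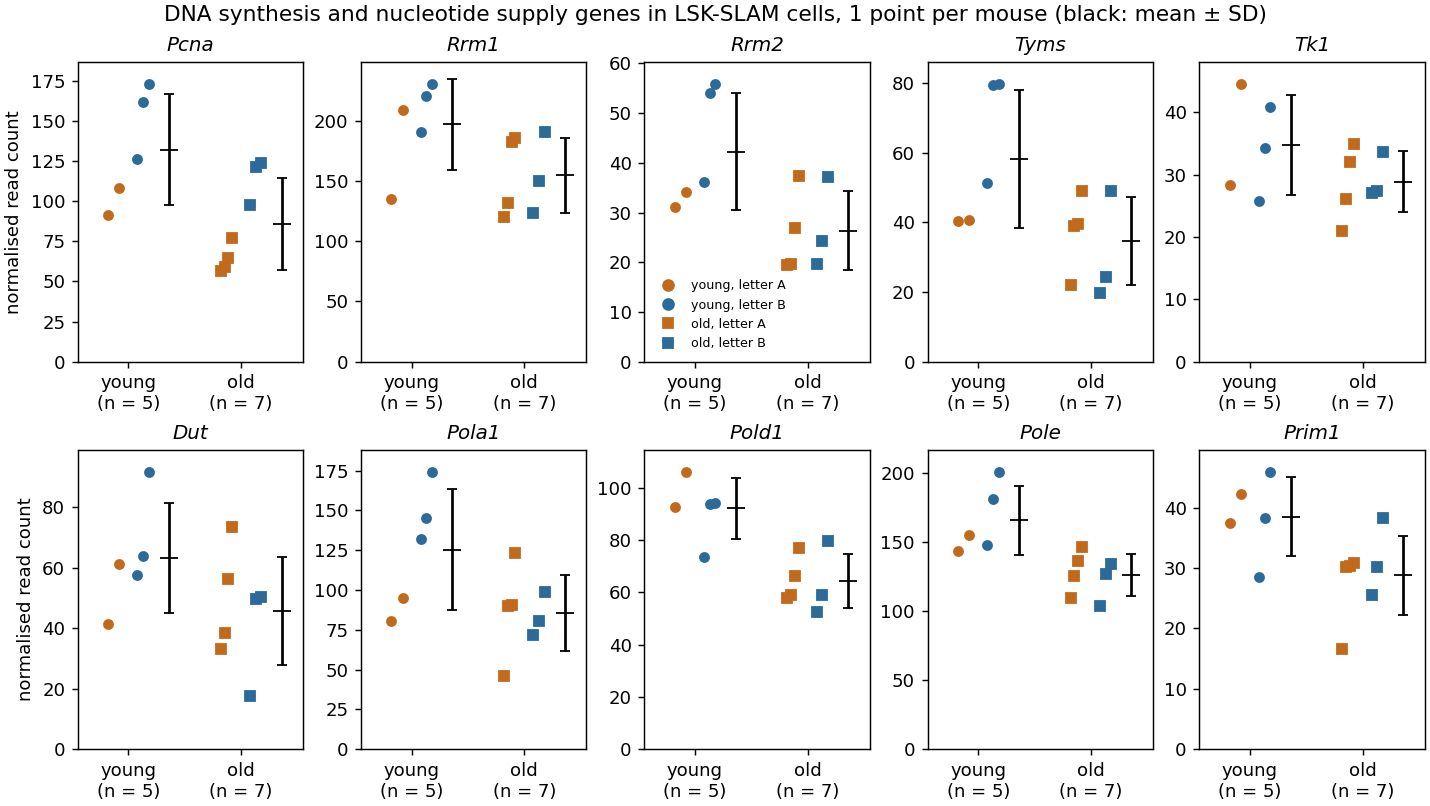
Normalised read count (y axis, from 0) of each gene in young and old mice, 1 point per mouse. Circles are young mice and squares old mice, orange is letter A and blue letter B, and the black bars give mean ± SD (young n = 5, old n = 7). Every old mean lies below the young mean, and the ranges of old and young mice overlap for each of the 10 genes.

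With the letter as a term in the limma model, the 10 genes stayed uncalled, their adjusted p lying between 0.44 and 1.0. Over all genes this fit called 0.299%, and 2.66% were lower at an unadjusted p under 0.05. The same number of the 10, 6, were lower at that unadjusted level, with log2 fold changes of -0.73 (*Tyms*) to -0.25 (*Tk1*) over the 10. On the recovered reads, edgeR called none of the 10, where it called 0.146% of all genes, and DESeq2 called none, where it called 0.469%. Each of those count tests had 6 of the 10 lower at an unadjusted p under 0.05, against 1.86% of all genes for edgeR and 2.1% for DESeq2.

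**Figure D2:**
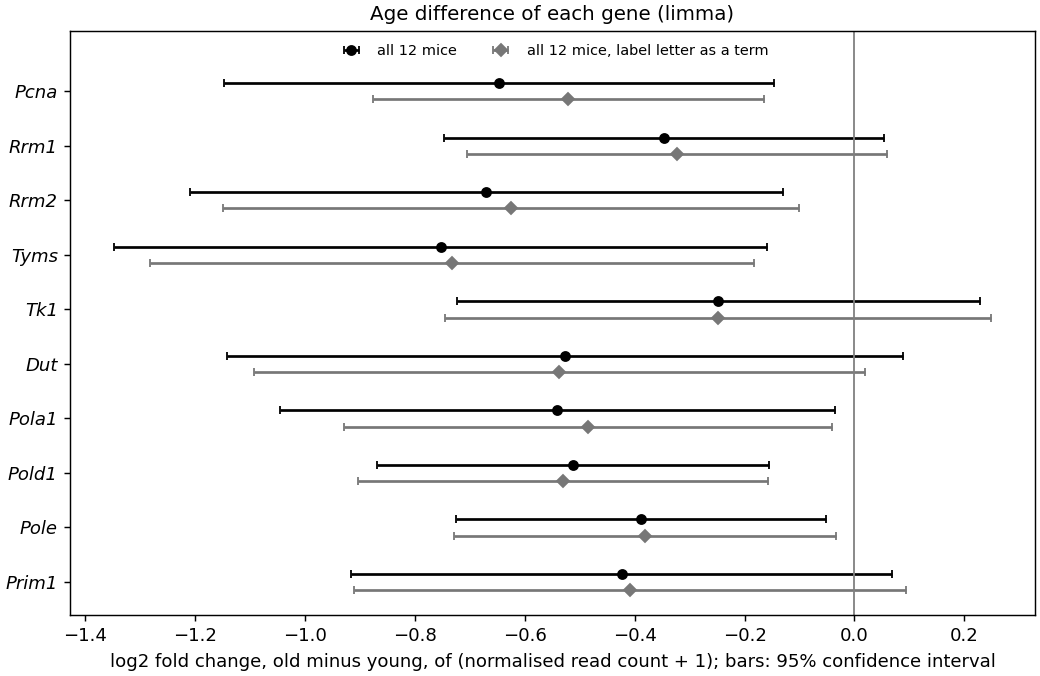
Log2 fold change, old minus young, of normalised read count + 1 (x axis) for each gene, with 95% confidence intervals from limma over 12 mice. Black circles are the fit on age, and grey diamonds the fit with the label letter as a term. All 10 estimates lie below 0, and with both fits the intervals of *Rrm1*, *Tk1*, *Dut* and *Prim1* include 0.

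*Pcna* encodes the sliding clamp, the ring that carries the replicative polymerases along the template. Its normalised read count was 109 and 91.3 in the 2 young mice of letter A and 126, 173 and 162 in the 3 of letter B. In old mice it ranged from 56.5 to 124 with a median of 77.0. Within each letter every old mouse was below every young mouse, while over all 12 mice the groups overlapped, as they did for each of the 10 genes (0.17% of all genes were lower in old mice without overlap). Of all genes tested, 0.494% were lower in old mice without overlap within both letters, and *Pcna* was the 1 gene of the 10 to do so. Young mice averaged 132 ± 34.8 (SD, n = 5) against 85.7 ± 28.7 (SD, n = 7) for old mice. The log2 fold change was -0.65 (95% confidence interval -1.15 to -0.15, limma adjusted p = 0.90). With the letter in the model it was -0.52 (-0.88 to -0.16, limma adjusted p = 0.44). A two-sided exact permutation test gave an unadjusted p of 0.0354 over 792 splits of the mice, and of 0.00333, the smallest the design can give, over the 300 splits within letters.

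*Pcna* was also the only one of the 10 called between letters, at a log2 difference (B minus A, age in the model) of 0.73 (0.38 to 1.09, limma adjusted p = 0.0026), where 36.1% of all genes were called. The median difference over all genes was -0.09. The other 9 differed between letters by -0.10 (*Pold1*) to 0.32 (*Pola1*). The pseudogene Pcna-ps2 shares 19.1% of the 50-base words of the *Pcna* exons, and its part in these values was not tested.

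*Pola1* encodes the catalytic subunit of DNA polymerase alpha. It lay at 94.9 and 80.3 normalised read counts in young mice of letter A, at 174, 132 and 145 in young mice of letter B, and between 45.8 and 123 (median 89.7) in old mice. Only the 3 young mice of letter B stood above all old mice. Its mean was 125 ± 38.1 (SD, n = 5) when young against 85.7 ± 23.8 (SD, n = 7) when old, and the log2 fold change was -0.54 (-1.05 to -0.04, limma adjusted p = 1.0, exact permutation unadjusted p = 0.0619). *Prim1* encodes the catalytic subunit of primase, which makes the RNA primer that polymerase alpha extends. Its young values were 42.3 and 37.5 (letter A) and 45.9, 28.5 and 38.2 (letter B), and its old values ran from 16.6 to 38.2 with a median of 30.2. Its log2 fold change was -0.42 (-0.92 to 0.07, limma adjusted p = 1.0, exact permutation unadjusted p = 0.0379), with 6 of 7 old mice below the young median.

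The polymerases of the moving fork had the least spread between mice. *Pold1* encodes the catalytic subunit of polymerase delta. It read 106 and 92.8 in young mice of letter A and 93.8, 94.2 and 73.4 in those of letter B, against 52.5 to 79.7 (median 59.1) in old mice, so that 4 of 5 young mice were above every old mouse. Young mice averaged 92.1 ± 11.7 (SD, n = 5) against 64.5 ± 10.3 (SD, n = 7) for old mice, and the coefficient of variation in young mice, 12.7%, was the lowest of the 10 genes. *Pold1* had the lowest limma p of the 10, at a log2 fold change of -0.51 (-0.87 to -0.16, limma adjusted p = 0.76, exact permutation unadjusted p = 0.00631).

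*Pole* encodes the catalytic subunit of polymerase epsilon. Its values were 155 and 143 (letter A) and 201, 148 and 182 (letter B) in young mice, and 104 to 147 (median 127) in old mice. Again 4 of 5 young mice were above every old mouse, and 6 of 7 old mice were below every young mouse. Its mean was 166 ± 24.7 (SD, n = 5) when young against 126 ± 15.1 (SD, n = 7) when old, and the log2 fold change was -0.39 (-0.72 to -0.05, limma adjusted p = 1.0, exact permutation unadjusted p = 0.00379).

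*Rrm1* and *Rrm2* encode the large and the small subunit of ribonucleotide reductase, the step that limits deoxynucleotide supply, and RRM2 protein is known to be limited to S phase and G2. *Rrm2* lay at 31.1 and 34.1 in young mice of letter A, at 36.1, 54.2 and 55.8 in young mice of letter B, and between 19.4 and 37.3 (median 24.3) in old mice. Of the 7 old mice, 5 were below every young mouse and the other 2 were at 37.2 and 37.3. The average of 42.3 ± 11.8 (SD, n = 5) when young against 26.3 ± 7.96 (SD, n = 7) when old corresponded to a log2 fold change of -0.67 (-1.21 to -0.13, limma adjusted p = 0.96, exact permutation unadjusted p = 0.0227).

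*Rrm1* differed less. Its young values were 209 and 135 (letter A) and 191, 230 and 220 (letter B), and its old values ran from 120 to 191 with a median of 150. The groups overlapped, with 3 of 5 young mice above every old mouse, and the log2 fold change was -0.35 (-0.75 to 0.05, limma adjusted p = 1.0, exact permutation unadjusted p = 0.0694).

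*Tyms* encodes thymidylate synthase, which methylates dUMP to dTMP. It had the largest fold change of the 10 genes in the fits on all 12 mice by limma, edgeR and DESeq2. Young mice of letter A had 40.7 and 40.4 and young mice of letter B 51.4, 79.3 and 79.6 normalised read counts, while old mice had 19.7 to 49.1 with a median of 38.9. All 3 young mice of letter B were above every old mouse, and both young mice of letter A lay inside the old range. The average of 58.3 ± 19.8 (SD, n = 5) when young against 34.6 ± 12.5 (SD, n = 7) when old corresponded to a log2 fold change of -0.75 (-1.35 to -0.16, limma adjusted p = 0.94, exact permutation unadjusted p = 0.0404).

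*Dut* encodes dUTPase, which removes dUTP and yields the substrate of thymidylate synthase. It was 61.3 and 41.3 (letter A) and 57.7, 63.8 and 91.7 (letter B) in young mice and 17.7 to 73.4 (median 49.6) in old mice. Its old mice spread most of the 10 genes (coefficient of variation 39.1%), and the log2 fold change was -0.53 (-1.14 to 0.09, limma adjusted p = 1.0, exact permutation unadjusted p = 0.136). *Tk1* encodes the thymidine kinase of the cytosol, which salvages thymidine. It had the smallest difference of the 10, with 44.5 and 28.4 (letter A) and 34.3, 25.7 and 40.8 (letter B) in young mice and 20.9 to 34.9 (median 27.4) in old mice. Its log2 fold change was -0.25 (-0.72 to 0.23, limma adjusted p = 1.0, exact permutation unadjusted p = 0.150), and the interval includes both no difference and a fall larger than the median of the 10 genes.

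The age difference was then taken within each letter, since the libraries of the letters differed. Besides depth, the transcript *Gm10800* took 7.18% to 18.6% of the reads in letter A and 1.60% to 8.44% in letter B, and the summed level of the 10 stem cell identity markers was 1597 to 4052 and 3866 to 5382. The part of these in the differences between letters was not tested. The direction was the same in both, with all 10 genes lower in old mice in letter A (median log2 fold change -0.27) and in letter B (median -0.51). In letter B 8 of the 10 were lower at an unadjusted p under 0.05, where 3.65% of all genes were, and in letter A none was, where 0.567% were. In letter B 2 genes passed the adjusted threshold, *Tyms* (-1.23, -1.85 to -0.61, limma adjusted p = 0.040) and *Pola1* (-0.84, -1.24 to -0.45, limma adjusted p = 0.025), and 0.809% of all genes were called there. In letter A none of the 10 was called by limma, with adjusted p of 1.0 throughout, and 0.00809% of all genes were called.

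Non-overlap between the ages was also counted within each letter. In letter A *Pcna*, *Pold1* and *Prim1* were lower in every old than in every young mouse, 3 of 10 against 5.31% of all genes. In letter B *Pcna*, *Tyms*, *Dut*, *Pola1* and *Pole* were, 5 of 10 against 6.18% of all genes. Whether the age difference itself differed between letters was tested by the interaction term. None of the 10 was called by limma (adjusted p = 1.0 for each) or by edgeR, and 0.0162% of all genes were. At an unadjusted p under 0.05, which 3.43% of all genes met, stood *Tyms*, whose difference between letters (B minus A) was -1.06 (-2.10 to -0.02). The intervals for the other 9 included 0 and were wide, as for *Dut* at -0.88 (-1.97 to 0.20).

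**Figure D3:**
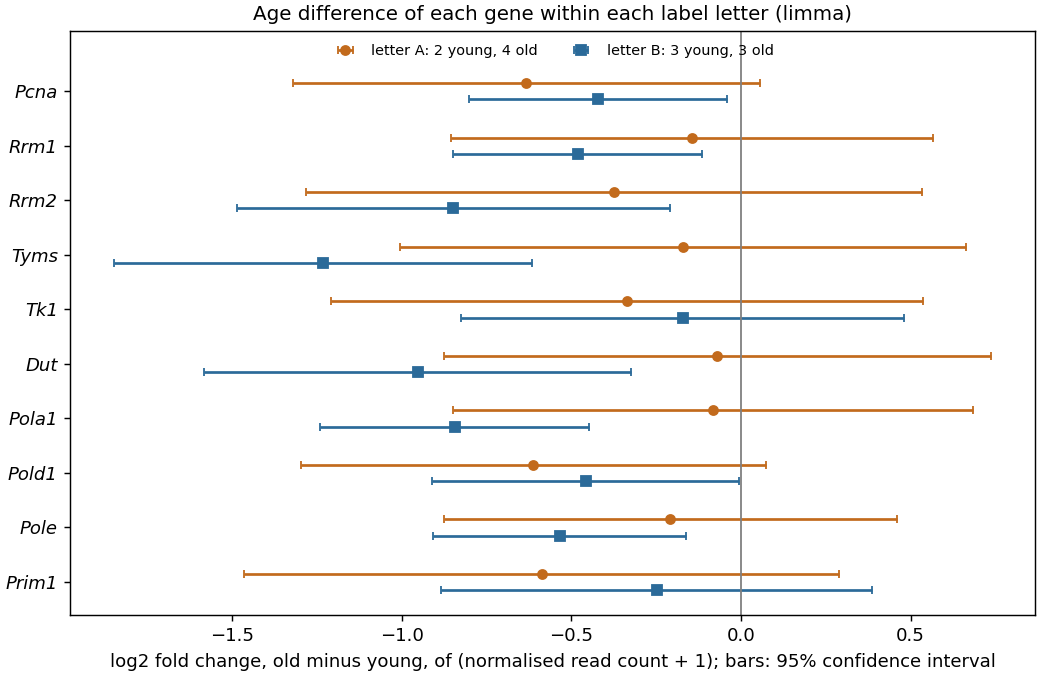
Log2 fold change, old minus young, of normalised read count + 1 (x axis) within the mice of letter A (orange circles, 2 young and 4 old) and of letter B (blue squares, 3 young and 3 old), with 95% confidence intervals from limma. All 20 estimates lie below 0, the intervals of letter A all include 0, and those of letter B include 0 for *Tk1* and *Prim1*.

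Partner genes were compared by the log2 ratio of their values + 1, which cancels what scales all genes of a mouse alike. The *Rrm2* to *Rrm1* ratio averaged -2.21 ± 0.33 (SD, n = 5) when young against -2.54 ± 0.35 (SD, n = 7) when old, and the difference of -0.32 did not pass (two-sided exact permutation p = 0.135, adjusted over the 3 ratios 0.405). The *Pole* to *Pold1* ratio averaged 0.84 ± 0.33 (SD, n = 5) against 0.96 ± 0.30 (SD, n = 7), a difference of 0.12 (exact permutation p = 0.506, adjusted 0.617). The *Prim1* to *Pola1* ratio averaged -1.64 ± 0.50 (SD, n = 5) against -1.52 ± 0.33 (SD, n = 7), a difference of 0.12 (exact permutation p = 0.617, adjusted 0.617).

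The pooled *Prim1* to *Pola1* value covered opposite differences within the letters. In letter A the ratio was -1.15 and -1.08 in young mice and -1.97 to -1.41 in old mice, every old mouse lower. In letter B it was -2.17 to -1.90 in young mice and -1.68 to -0.89 in old mice, every old mouse higher. The differences were -0.51 in letter A (exact permutation p = 0.0667, the smallest that 2 against 4 allows) and 0.60 in letter B (exact permutation p = 0.1, the smallest 3 against 3 allows), and neither design can reach the threshold. The *Pole* to *Pold1* ratio was higher in old mice by 0.40 in letter A (exact permutation p = 0.0667) and lower by -0.08 in letter B (exact permutation p = 0.800).

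**Figure D4:**
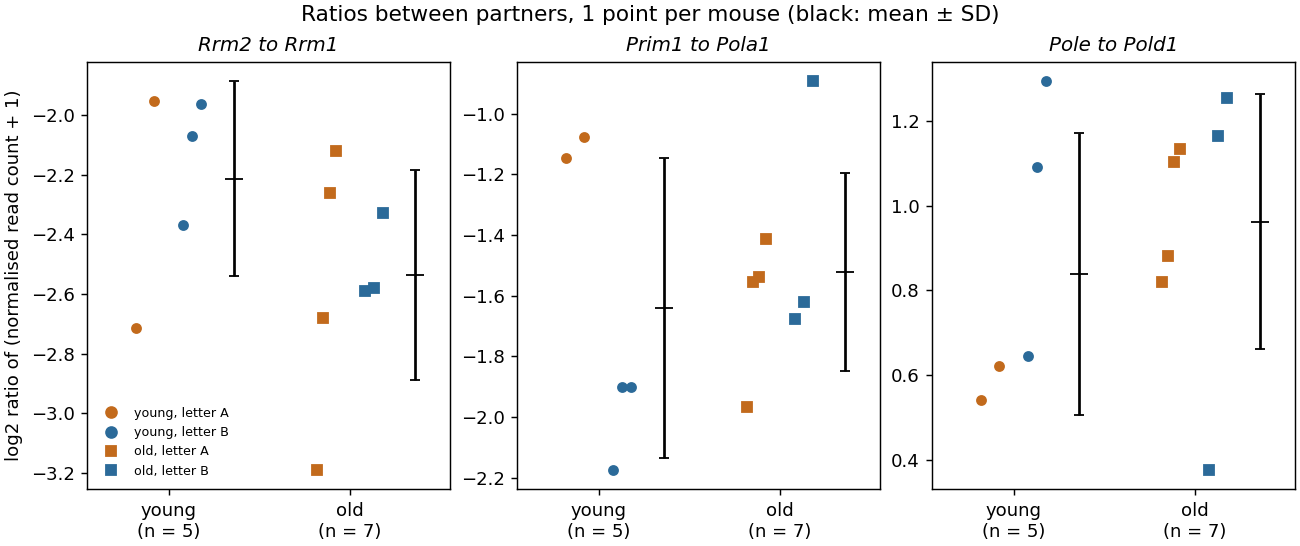
Log2 ratio of normalised read count + 1 between partner genes (y axis, not starting at 0), 1 point per mouse. Circles are young and squares old mice, orange is letter A and blue letter B, and black bars give mean ± SD (young n = 5, old n = 7). In the middle panel the old mice lie below the young mice in letter A and above them in letter B.

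Levels were compared between genes per kilobase of annotated exon, on the normalised read count scale. *Pcna* led in young mice at 55.1 ± 14.5 (SD, n = 5) per kilobase, above *Dut* at 26.2 ± 7.54 in each of the 5 young mice. *Pold1* (18.9 ± 2.42), *Rrm1* (17.9 ± 3.42), *Rrm2* (15.3 ± 4.25), *Pole* (14.8 ± 2.21) and *Pola1* (14.2 ± 4.32) followed, and each overlapped its neighbours in this order. *Prim1* (9.95 ± 1.69), *Tyms* (9.57 ± 3.25) and *Tk1* (6.68 ± 1.53) were lowest and also overlapped. The length counts every annotated exon base, so a gene with long alternative exons is placed lower.

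Correlations between the 10 genes were taken with and without the age difference. Over the 12 mice, after centring on each letter, 44 of the 45 pairs had a positive Pearson correlation of log2 values (median 0.47). After centring on age and letter together, 26 of 45 were positive (median 0.16), the highest between *Pola1* and *Prim1* (0.73) and the lowest between *Dut* and *Prim1* (-0.59). The genes of a mouse share its library and depth, and these values are descriptions over 12 mice. The mean log2 value of the 10 genes averaged 6.30 ± 0.21 over young mice (SD, n = 5) against 5.80 ± 0.16 over old mice (SD, n = 7), and young mouse 2 (5.97) lay inside the old range of 5.62 to 6.03.

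The genes outside the 10 whose log2 values followed that mean most closely over the 12 mice, centred on letter, were *Top2a* (Pearson r = 0.95), which encodes topoisomerase II alpha, *Kif4* (0.94), a kinesin of mitosis, *Emcn* (0.93), an endomucin of the surface of stem and endothelial cells, *Tmem60* (0.90) and *Mcm2* (0.90), a subunit of the replicative helicase. None was called (limma adjusted p of 0.64 for *Top2a*, 0.64 for *Kif4*, 0.87 for *Emcn*, 0.71 for *Tmem60* and 0.80 for *Mcm2*). Age was not taken out of these 5 correlations, so picking genes by them favours genes that are also lower in old mice. *Top2a* read 306 ± 76.5 when young (SD, n = 5) against 182 ± 51.5 when old (SD, n = 7), and *Mcm2* 134 ± 26.8 and 87.7 ± 25.8.

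Of the neighbouring genes of the pathway, 83 in 7 lists were tested and 62 were lower in old mice, where 52.3% of all genes were. At an unadjusted p under 0.05 by limma, 13 were lower (1.99% of all genes were) and none was higher (1.96% were). None was called by limma, with or without the letter, by edgeR or by DESeq2. The same shares of all genes apply to the counts of the single lists that follow. Among the clamp loaders and partners of the clamp, 15 of 17 were lower, 6 at an unadjusted p under 0.05 (median log2 fold change -0.33). *Lig1*, the ligase that seals Okazaki fragments, had 91.8 ± 21.9 when young (SD, n = 5) against 55.7 ± 16.6 when old (SD, n = 7) (-0.74). *Pclaf*, a PCNA-binding factor, had 37.7 ± 6.85 and 19.3 ± 11.3 (-1.13), and *Fen1*, the flap endonuclease, 39.1 ± 12.8 and 22.4 ± 8.06 (-0.79).

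Of the partner subunits of the polymerases 5 of 7 were lower, 1 at an unadjusted p under 0.05 (median -0.28). This was *Pold3*, a subunit of polymerase delta, at 87.4 ± 10.9 when young (SD, n = 5) against 62.8 ± 13.1 when old (SD, n = 7). Of the fork helicase and fork protection genes 7 of 8 were lower, none at that level (median -0.28), with *Topbp1*, an activator of the checkpoint kinase ATR, nearest at 265 ± 54.4 and 198 ± 42.5.

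The supply genes were split. In de novo nucleotide synthesis 14 of 17 were lower, 3 at an unadjusted p under 0.05 (median -0.22), namely *Ctps*, CTP synthase (51.1 ± 7.94 in young, 33.2 ± 7.96 in old mice), *Impdh1*, which makes XMP on the way to GTP (40.9 ± 7.85 and 26.8 ± 9.65), and *Umps*, which makes UMP (75.7 ± 17.7 and 56.6 ± 8.71). In deoxynucleotide supply and turnover 7 of 13 were lower and 6 higher (median -0.02, as over all genes). Of these, 1 was lower at an unadjusted p under 0.05, *Dguok*, and none was higher at that level. *Dguok*, the deoxyguanosine kinase of mitochondria, was at 39.6 ± 5.11 and 27.9 ± 6.96, and *Tk2*, the thymidine kinase of mitochondria, was at 40.5 ± 8.62 in young and 51.3 ± 7.13 in old mice, the opposite sign to *Tk1*. Neither passed the adjusted threshold (limma adjusted p = 1.0).

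Among the E2F factors and pocket proteins 8 of 11 were lower, 2 at an unadjusted p under 0.05 (median -0.06). *E2f1*, an activator of S phase genes, was at 37.0 ± 9.72 when young (SD, n = 5) against 21.1 ± 8.07 when old (SD, n = 7), and *E2f8*, a repressor, at 64.3 ± 19.3 and 41.5 ± 13.6. Among the translesion and repair polymerases 6 of 10 were lower, none at that level (median -0.03). *Polm*, a polymerase of end joining, was at 14.3 ± 3.93 when young and 23.2 ± 8.52 when old, a log2 fold change of 0.63 (limma adjusted p = 1.0).

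**Figure D5:**
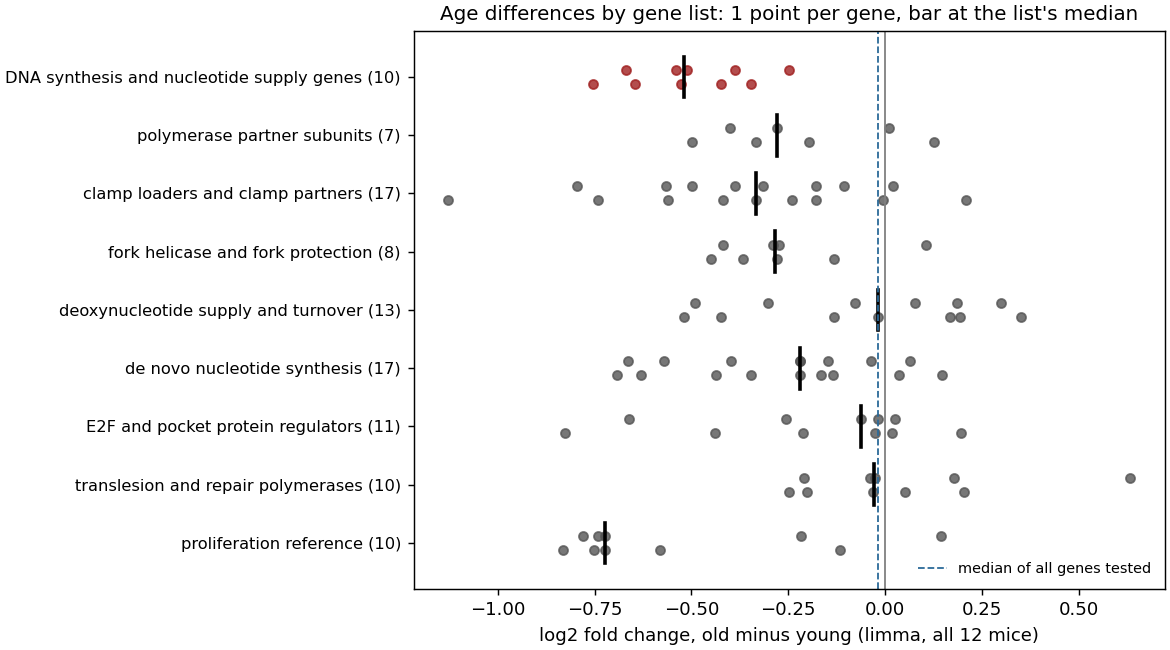
Log2 fold change, old minus young (limma, 12 mice, x axis), of each gene tested in the 10 DNA synthesis and nucleotide supply genes (red) and 8 other lists (grey), with the number of genes in brackets. Black bars are list medians and the dashed line is the median of all genes. The median of the 10 genes, -0.52, lies between those of the proliferation genes, -0.72, and the clamp partners, -0.33.

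Genes that mark cycling cells had lower means too. Of 10 proliferation genes fixed as a reference, 9 were lower in old mice (52.3% of all genes were), with a median of -0.72. At an unadjusted p under 0.05 by limma 6 were lower, against 1.99% of all genes. Among the 6 were *Cdk1*, the kinase of mitotic entry, at 40.7 ± 12.3 and 23.8 ± 6.79, and *Ccna2*, cyclin A, at 146 ± 40.2 and 90.5 ± 37.5. Their summed level was 879 to 1809 in young and 675 to 1305 in old mice.

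Markers of multipotent progenitors were also compared, and none was called in the fit on age alone. Of 3, 2 passed the minimum and both were lower in old mice. The summed level of the 3 was 167 to 293 in young and 98.0 to 139 in old mice, with no overlap. Each of the 3 taken singly overlapped between the ages. *Cd34* was 99.5 to 224 in young and 69.4 to 104 in old mice (log2 fold change -1.04, limma adjusted p = 0.054), and with the letter in the model it was called (-0.99, limma adjusted p = 0.0086). *Flt3* was 42.6 to 74.3 and 14.2 to 46.6 (limma adjusted p = 0.78, and 0.052 with the letter). The part of these markers in the difference of the 10 genes was not tested.

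Summed markers of mature cells overlapped between the ages, and the median differences of most lists, not all, had opposite signs in the letters. The median log2 fold change (old minus young) of the 6 neutrophil and monocyte markers tested was 1.74 in letter A and -1.22 in letter B. That of the 8 erythroid markers was 0.86 and -0.60, and that of the 3 B cell markers tested 0.44 and -0.12. The 3 megakaryocyte markers tested went the other way, at -0.01 and 0.30. The 1 T and NK cell marker tested was lower in old mice in both letters (-0.09 and -0.04). The median of the 10 genes was -0.27 and -0.51. The part of these markers in the values of the 10 genes was not tested. The 7 of 8 neutrophil and monocyte markers with a row summed to 141 to 382 in young and 156 to 1853 in old mice, the highest in a mouse of letter A. The sums were 131 to 297 and 83.2 to 810 for the 8 erythroid markers, 51.8 to 119 and 54.5 to 133 for 5 of 6 B cell markers, 12.8 to 52.9 and 7.0 to 82.9 for 4 of 6 T and NK cell markers, and 127 to 243 and 94.7 to 221 for 4 of 5 megakaryocyte markers. No marker was at 0 in all mice.

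All 10 are protein-coding genes, placed here by GENCODE on GRCm38, which is mm10. *Pcna* lies on chromosome 2 (132249162 to 132253314, minus strand), as does *Dut* (125247190 to 125258608, plus). *Rrm1* (102441695 to 102469771, plus) and *Pold1* (44532746 to 44548849, minus) are on chromosome 7, and *Tyms* (30058202 to 30073617, minus) and *Pole* (110286306 to 110337474, plus) on chromosome 5. *Rrm2* is on chromosome 12 (24708241 to 24714146, plus), *Tk1* on 11 (117815526 to 117826092, minus), *Prim1* on 10 (128015168 to 128030037, plus) and *Pola1* on X (93304767 to 93632155, minus). *Tk1* overlaps *Afmid* and *Gm20708* on the opposite strand, *Pola1* overlaps *Gm14780*, *Pold1* overlaps *Gm44833* and *Pole* overlaps *Gm15792*. On the same strand *Rrm1* overlaps *Gm45399*, *Pola1* overlaps *Gm23557*, *Pold1* overlaps *Mir7053*, and *Pole* overlaps *Gm26277* and *Gm15791*. Whether reads were counted by strand is not given in the sources used here, so reads from opposite-strand partners cannot be told apart. How reads in same-strand overlaps were counted is not given either.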

How the data were processed

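RNA of sorted LSK-SLAM cells had been depleted of ribosomal RNA, and 300 pg entered the TotalScript kit. The submitters' processing notes name FastQC 0.11.8, STAR 2.5.4b, edgeR 3.24.3 and mm10. The annotation and counting tool are not given in the sources used here. The table deposited by the authors holds a normalised read count per gene and mouse, a signal of reads relative to a scaled library size. All values (100%) were whole multiples of 1 read within 0.01 reads, so reads were recovered. The 24 labelled samples are 2 per mouse, and each of the 12 mice has 1 column and counted once. A deposited table of the authors' own comparison (fold changes, p-values) was not used.

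Genes with a mean of at least 10 were tested on log2(value + 1) with limma 3.58.1 (lmFit, eBayes with trend, R 4.3.3) and Benjamini-Hochberg adjustment, called under 0.05. A fold change on this scale understates that of low genes. Alternatives used edgeR 4.0.16 quasi-likelihood and DESeq2 1.42.0 on the recovered reads, the letter as a term, other filters and scalings, and each mouse left out. Single genes and ratios were tested by two-sided exact permutation of mice, unadjusted for the 10 genes. The limma, edgeR and DESeq2 fits were also run on simulated data, which held no effect of the letter.

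The 10 genes and all lists were chosen with earlier results of these data known. Besides the 10, the text names per pathway list the called genes or else up to 3 with the lowest unadjusted p (some of the 3 only), and the 5 genes most correlated with the mean of the 10 over 12 mice. Deviations from the group means correlated between same-numbered young and old mice at a mean r of 0.14 (-0.56 to 0.61). Between mice of different numbers the mean was -0.02 (-0.71 to 0.71). Letters were not separated in these means, and numbers were not treated as pairs.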

Additional observations from a re-analysis of the deposited data

Results flagged for a closer look

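The log2 ratio of *Prim1* to *Pola1* stood out because its age difference had opposite signs in the mice of the 2 letters, with no overlap in either. Old minus young was -0.51 in letter A (2 young and 4 old mice) and 0.60 in letter B (3 young and 3 old mice). The exact permutation p was 0.0667 in letter A and 0.1 in letter B, the smallest those splits allow. No share over other gene pairs is given beside this, and the difference between the letters was not tested. Young mice of letter A had higher ratios (-1.15 and -1.08) than young mice of letter B (-2.17 to -1.90), so the letters also differ among young mice. Depth did not overlap between letters either, and its part in this was not tested. Among the 26 sets of young or old values examined (10 genes and 3 ratios), none held a mouse far from the others by Dixon's test, where chance gives about 1.3.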

How the results depend on the processing

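All 10 genes stayed lower in old mice in each of 27 alternative fits of age (270 of 270 values), with *Tyms* and *Pola1* called in 1 of them, letter B alone. The fits reuse the same mice, so these values are not independent of each other. Letter A alone moved the median log2 fold change to -0.27 and the number of the 10 genes lower at an unadjusted p under 0.05 from 6 to 0. Letter B alone gave 2 of the 10 called. The 13 genes called over all genes became 2 without trend, 37 with the letter as a term, 1 in letter A alone, 100 in letter B alone, 43 with edgeR and the letter, 58 with DESeq2, and 49 without the shallowest mice (old mice 5 and 7), an alternative chosen after seeing the data that called none of the 10. Leaving out 1 mouse gave 3 to 32 genes called (3 without old mouse 1, 2 or 3 or young mouse 3 or 4, 4 without young mouse 5, 6 without young mouse 1, 7 without old mouse 6, 32 without old mouse 5), none of the 10 called, 2 to 8 of them lower at an unadjusted p under 0.05, and medians of -0.59 to -0.45. Restricted to numbers 1 to 5, a replicate block gave 19 genes called and the fit without it 8, with none of the 10 called in either. The ratio of *Prim1* to *Pola1* reversed in letter A alone (-0.51) and without young mouse 4 (-0.016, range -0.016 to 0.26 over mice left out), and that of *Pole* to *Pold1* in letter B alone (-0.077). The ratio of *Rrm2* to *Rrm1* lay at -0.45 to -0.21 over mice left out (lowest adjusted p over the 3 ratios 0.127, without young mouse 1, by exact permutation), and that of *Pole* to *Pold1* at 0.05 to 0.24. The causes were not tested. Reads per mouse were 16 to 276 for *Rrm2* and 17 to 175 for *Tk1*, the genes of the 10 with the fewest reads in any mouse.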
